A study of Homo sapiens with 12 samples.

Results

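The genes described here are the EGR zinc finger factors EGR1, EGR2 and EGR3, the IER (immediate early response) genes IER2, IER3, IER5 and IER5L, and SRF. They were taken by symbol, which gave 8 of the 26334 genes in the count table, and 7 of the 8 passed the filter on low counts. EGR3 did not pass. RNA-seq libraries of polyadenylated RNA came from shA673-1c, cells derived from A673, an established Ewing sarcoma line, in which doxycycline switches on an shRNA directed at EWS::FLI1, the tumour's fusion gene. The cells were sampled after 0, 1, 2 and 4 h of 5 µM ActD (actinomycin D, which blocks transcription), with 3 biological replicates at each time. All 12 libraries, those of 0 h included, came from cells kept in Blasticidin and zeocyn with 1 µg/ml doxycyclin, for 4 days to knock down the fusion. Cells not given doxycycline were not analysed here, so no value below measures the knockdown, and all values come from 1 cell line. With transcription blocked, the course follows how fast each existing mRNA is lost.

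Immediate early genes are switched on within minutes of a growth factor or stress signal, without new protein synthesis. ERK signalling reaches many of them through SRF, which binds the CArG box of their promoters together with ETS-type cofactors such as ELK1 or with the actin-regulated MRTF cofactors. Their mRNAs are known for rapid decay, so that the response is short. EGR factors are DNA-binding products of this first wave and in turn switch on later genes, among them their own corepressor NAB2. The IER genes encode proteins with no shared enzyme activity: IER3 is a regulator of apoptosis and ERK signalling, and IER2, IER5 and IER5L are related nuclear proteins, of which IER5 binds the phosphatase PP2A and promotes activity of the heat shock factor HSF1.

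The sequences shown are the 250 bases before a RefSeq transcription start. They were chosen because SRF binds CArG boxes in promoters of immediate early genes. The RefSeq promoter table used here (GRCh38.p14) matched 6 of the 8 genes, and EGR3 and IER3 were not searched. Of the 6, a CArG box lay in the 3 promoters of EGR1, EGR2 and SRF, against 1.44% of the 27305 genes with a promoter of this length. EGR2 has 3 listed starts, and only the third held one. SRF has 2 listed starts, and only the first, which is shown, held any. IER5 is shown beside them as a member whose mRNA fell and whose window held no CArG box. Capitals mark the CArG boxes, which were searched on both strands.
EGR1, chr5:138465229-138465478, + strand: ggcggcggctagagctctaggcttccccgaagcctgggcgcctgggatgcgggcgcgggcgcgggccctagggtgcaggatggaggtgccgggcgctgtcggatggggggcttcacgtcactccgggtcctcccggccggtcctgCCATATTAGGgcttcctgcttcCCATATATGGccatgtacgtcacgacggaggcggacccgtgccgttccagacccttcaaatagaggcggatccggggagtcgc
EGR2, chr10:62816367-62816616, - strand: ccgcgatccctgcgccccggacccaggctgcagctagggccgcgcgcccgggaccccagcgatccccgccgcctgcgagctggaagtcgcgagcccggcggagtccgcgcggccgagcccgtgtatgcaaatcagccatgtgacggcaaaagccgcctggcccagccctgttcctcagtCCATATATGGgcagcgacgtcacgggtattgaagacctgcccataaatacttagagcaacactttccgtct
SRF, chr6:43171019-43171268, + strand: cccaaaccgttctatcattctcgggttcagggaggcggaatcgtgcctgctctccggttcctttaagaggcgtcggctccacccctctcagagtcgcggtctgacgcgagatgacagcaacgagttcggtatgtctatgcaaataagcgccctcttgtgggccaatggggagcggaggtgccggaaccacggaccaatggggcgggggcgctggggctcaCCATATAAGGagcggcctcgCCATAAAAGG
IER5, chr1:181088450-181088699, + strand: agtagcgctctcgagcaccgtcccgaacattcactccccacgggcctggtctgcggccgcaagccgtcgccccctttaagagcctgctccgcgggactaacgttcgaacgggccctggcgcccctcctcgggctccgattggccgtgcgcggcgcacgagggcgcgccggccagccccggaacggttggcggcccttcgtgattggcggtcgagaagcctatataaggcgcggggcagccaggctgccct
In EGR1 the boxes began 105 and 83 bases before the start, in EGR2 71 bases before it, and in SRF 30 and 10 bases before it. The letters ACGTCA, the core of the cyclic AMP response element, occurred at 136 and 67 bases before the start of EGR1 and at 55 bases before that of EGR2. These letters lay in 8.62% of the genes, on either strand. The letters GCGGGGGCG, an EGR binding motif, began 49 bases before the start of SRF and occurred in 5.74% of the genes. The ETS motif CCGGAA was found in IER2, IER5 and SRF, against 17.2% of the genes. TATAAA, present in 13.0% of the genes, was not found in these windows. A match is a string of letters, and binding was not measured.

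Library totals lay between 9381855 and 10929000 counts. Levels below are CPM (read counts scaled by library total and TMM factor), and every change is relative to the library's other mRNAs, because the counts include no spike-in RNA. The second principal component, with 15.9% of the variance, set replicate 3 apart at every time. Of the Ewing sarcoma markers, FLI1, EWSR1, NKX2-2, STEAP1 and CCND1 passed the filter, while CD99 was listed at 0 in all 12 libraries. FLI1 stood at 20.5 ± 1.05 CPM and EWSR1 at 236 ± 28.9 CPM at 0 h (SD, n = 3). Of 12 markers of blood, epithelium, endothelium, liver and red cells, HBB and PECAM1 passed. HBB went from 22.6 ± 4.35 CPM at 0 h to 10.6 ± 3.73 CPM at 4 h, with its partner HBA1 at 0 or 1 count in every library. The summed level of the 12 markers was 21.1 to 30.6 CPM at 0 h and 12.1 to 19.8 CPM at 4 h. The other 10 summed to 0.755 to 1.51 and 1.27 to 1.59 CPM. Their part in the results was not tested.

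The EGR and IER mRNAs that could be tested fell steeply, and that of SRF did not. After 4 h the 6 tested EGR and IER genes were 7.66-fold to 18.3-fold lower, while SRF stood at 106% ± 7.26 of its 0 h level (SD, n = 3). By edgeR's quasi-likelihood test with Benjamini-Hochberg adjustment over 12775 genes, 3 of the 7 tested genes were lower at 1 h (IER2, EGR1 and IER5), where 1.16% of all tested genes were called lower. With the replicate number as a block, 6 were lower at 1 h, against 6.28% of all genes. At 2 h and at 4 h all 6 EGR and IER genes were lower, against 11.7% and 24.6% of all genes. None of the 7 was called higher at 1, 2 or 4 h, where 0.172%, 3.39% and 23.3% of all genes were. The median log2 change of the 7 was -1.02, -2.46 and -3.60 at 1, 2 and 4 h, beside medians of -0.02, 0.01 and 0.05 over all tested genes. A fall at each later time without overlap between libraries was seen in EGR1, IER2, IER5 and IER5L, 4 of the 7, and in 3.99% of all tested genes.

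**Figure D1:**
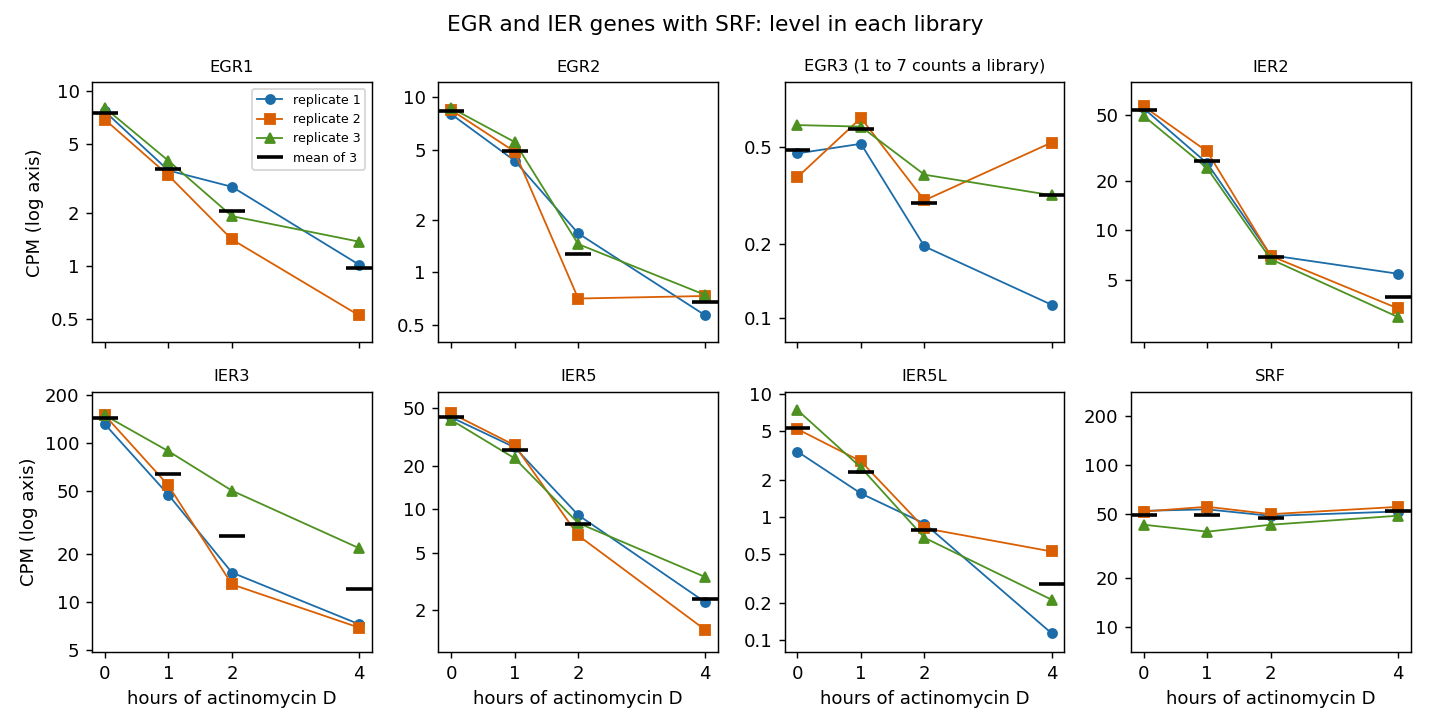
Level of each gene (CPM, log axis, with a scale of its own in each panel) against hours of actinomycin D. Points joined by lines are the libraries of 1 replicate number and black bars the mean of 3. EGR1, EGR2, IER2, IER3, IER5 and IER5L fall, IER3 of replicate 3 lies above the others from 1 h on, SRF stays between 38.7 and 55.1 CPM, and EGR3 rests on 1 to 7 counts a library.

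EGR1, a zinc finger factor induced by nearly every growth signal, stood at 7.65, 6.88 and 8.02 CPM in replicates 1, 2 and 3 at 0 h. It was at 3.52, 3.30 and 4.00 CPM at 1 h, at 2.84, 1.42 and 1.93 CPM at 2 h, and at 1.02, 0.523 and 1.38 CPM at 4 h. No library of a later time reached the level of an earlier one. The 4 h libraries held 9, 5 and 13 counts, a sum of 27 (exact Poisson 95% interval 17.8 to 39.3, counting error only). By edgeR, EGR1 had a log2 change of -1.06 at 1 h (SE 0.23, adjusted p = 0.0442), -1.86 at 2 h (SE 0.25, adjusted p = 0.000208) and -2.94 at 4 h (SE 0.29, adjusted p = 3.52e-06), a 7.66-fold fall. The call at 1 h sat near the threshold. It passed with the block (adjusted p = 9.25e-05) and was lost under library totals (0.0523), under scaling to ribosomal protein mRNAs (0.0694) and without any one of the 6 libraries of 0 and 1 h (adjusted p from 0.111 to 0.187). It was also lost without 2 h replicate 3 (adjusted p = 0.0535), 4 h replicate 1 (0.0645) or all of replicate 3 (0.0614).

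EGR2, known for its part in myelination by Schwann cells, stood at 8.03, 8.48 and 8.72 CPM at 0 h and at 4.35, 4.90 and 5.56 CPM at 1 h. At 2 h its values were 1.67, 0.708 and 1.45 CPM, and at 4 h they were 0.567, 0.732 and 0.742 CPM. The libraries of 2 and 4 h overlapped, and all of them lay below those of 1 h. At 1 h edgeR gave EGR2 a log2 change of -0.76 that missed the threshold (SE 0.19, adjusted p = 0.0822; with the block, adjusted p = 0.00122). It was -2.71 at 2 h (SE 0.23, adjusted p = 4.98e-06) and -3.60 at 4 h (SE 0.26, adjusted p = 2.07e-07), a 12.1-fold fall. The 4 h value rested on 5, 7 and 7 counts, a sum of 19 with an exact Poisson 95% interval of 11.4 to 29.7 that covers counting error only.

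EGR3, a relative of EGR1 and a target of it in some cells, was close to the limit of detection. Its counts were 5, 4 and 7 at 0 h, 5, 7 and 7 at 1 h, 2, 3 and 4 at 2 h, and 1, 5 and 3 at 4 h. Sums of 16 counts at 0 h (95% interval 9.15 to 26) and 9 counts at 4 h (4.12 to 17.1) overlapped within counting error. When EGR3 was tested without the filter, edgeR gave it -0.58 at 4 h (log2 change, SE 0.57, adjusted p = 0.499). A difference was not detectable at this depth.

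IER2 encodes a nuclear protein of the first wave. Its libraries stood at 55.0, 56.6 and 49.5 CPM at 0 h, at 25.5, 30.1 and 23.8 CPM at 1 h, at 7.05, 6.98 and 6.67 CPM at 2 h and at 5.44, 3.35 and 2.97 CPM at 4 h. The times did not overlap. IER2 passed the test at every time, with a log2 change of -1.02 at 1 h (SE 0.14, edgeR adjusted p = 0.00318), -2.96 at 2 h (SE 0.16, adjusted p = 1.53e-07) and -3.78 at 4 h (SE 0.17, adjusted p = 4.66e-09). These calls held without any 1 library, with adjusted p up to 0.0273 at 1 h.

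IER3, the apoptosis regulator, had the highest level per kilobase of the group at 0 h. It stood at 131, 149 and 149 CPM at 0 h. At 1 h replicates 1 and 2 were at 47.2 and 54.0 CPM and replicate 3 at 88.7 CPM. At 2 h they were at 15.3, 12.9 and 50.1 CPM, and at 4 h at 7.25, 6.90 and 21.8 CPM. Replicate 3 was the highest from 1 h on, and its 2 h and 4 h libraries made neighbouring times overlap. It kept 33.5% of its 0 h level at 2 h, where replicates 1 and 2 kept 11.6% and 8.71%. In the other 5 falling genes replicate 3 lay between 9.14% and 24.1% at 2 h, and it was the highest of the 3 only in IER2, at 13.5% against 12.8% and 12.3%. Of these 5 genes, replicate 3 was the highest at 1 h in EGR1 and EGR2 only, and at 4 h in EGR1 and IER5 only. Among 35 other immediate early genes, replicate 3 kept the largest share at 2 h in 21, with a median of 47.1% against 35.9% and 31.5% in replicates 1 and 2. At 1 h it did so in 14, with a median of 71.1% against 72.3% and 68.9%. At 4 h it did so in 20, with a median of 24.1% against 21.4% and 18.9%. The same share over all tested genes is not given here. The part of this difference between replicates in the IER3 values was not tested.

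By edgeR, IER3 had a log2 change of -1.17 at 1 h (SE 0.44, adjusted p = 0.343), a miss that passed with the block (adjusted p = 1.48e-06) and without replicate 3 (log2 change -1.47, adjusted p = 8.74e-06). At 2 h it was -2.45 (SE 0.47, adjusted p = 0.00324) and at 4 h -3.57 (SE 0.52, adjusted p = 0.000106), an 11.9-fold fall. The size of both rested on replicate 3: the log2 change was -3.34 at 2 h without 2 h replicate 3 and -4.34 at 4 h without 4 h replicate 3. RefSeq lists an antisense gene, IER3-AS1, that overlaps IER3. It has no row in the count table and the strand setting of the counting was not given, so reads of the antisense RNA may be part of these counts.

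IER5, the PP2A-binding protein, promotes HSF1 activity. Its mRNA stood at 43.3, 46.2 and 41.5 CPM at 0 h, at 26.8, 27.7 and 22.5 CPM at 1 h, at 9.11, 6.58 and 8.02 CPM at 2 h and at 2.27, 1.46 and 3.39 CPM at 4 h. Each time lay wholly below the one before. By edgeR, IER5 had a log2 change of -0.77 at 1 h (SE 0.15, adjusted p = 0.0274), -2.46 at 2 h (SE 0.17, adjusted p = 1.29e-06) and -4.19 at 4 h (SE 0.20, adjusted p = 7.90e-09), an 18.3-fold fall. The 1 h call was lost without 0 h replicate 1 or 2 or any 1 h library (adjusted p from 0.0793 to 0.163), and held with the block (adjusted p = 6.54e-07).

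IER5L, its relative, had fewer counts. Its libraries held 3.40, 5.18 and 7.40 CPM at 0 h, a spread wider than in the other falling genes, then 1.55, 2.83 and 2.52 CPM at 1 h. They held 0.882, 0.809 and 0.676 CPM at 2 h and 0.113, 0.523 and 0.212 CPM at 4 h, the last from 1, 5 and 2 counts. The 4 times did not overlap. By edgeR, IER5L had a log2 change of -1.20 at 1 h (SE 0.31, adjusted p = 0.1; with the block, adjusted p = 0.000241), -2.74 at 2 h (SE 0.37, adjusted p = 0.000233) and -4.16 at 4 h (SE 0.46, adjusted p = 1.05e-05). Without 4 h replicate 2 the 4 h change was -4.92. The 8 counts summed at 4 h have a 95% interval of 3.45 to 15.8, against 175 counts at 0 h.

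SRF, the factor that acts on the CArG boxes, held its level. It stood at 52.0, 51.5 and 42.7 CPM at 0 h, at 53.1, 55.1 and 38.7 CPM at 1 h, at 48.4, 49.6 and 42.7 CPM at 2 h and at 51.5, 55.0 and 48.5 CPM at 4 h. All 4 times overlapped, and replicate 3 was the lowest library at each. SRF had a log2 change of 0.00 at 1 h (SE 0.13), -0.06 at 2 h (SE 0.13) and 0.08 at 4 h (SE 0.13), with edgeR adjusted p-values of 1, 0.844 and 0.616. The sign at 4 h depends on scaling: it was -0.07 under library totals and -0.28 under scaling to ribosomal protein mRNAs (adjusted p = 0.0946).

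**Figure D2:**
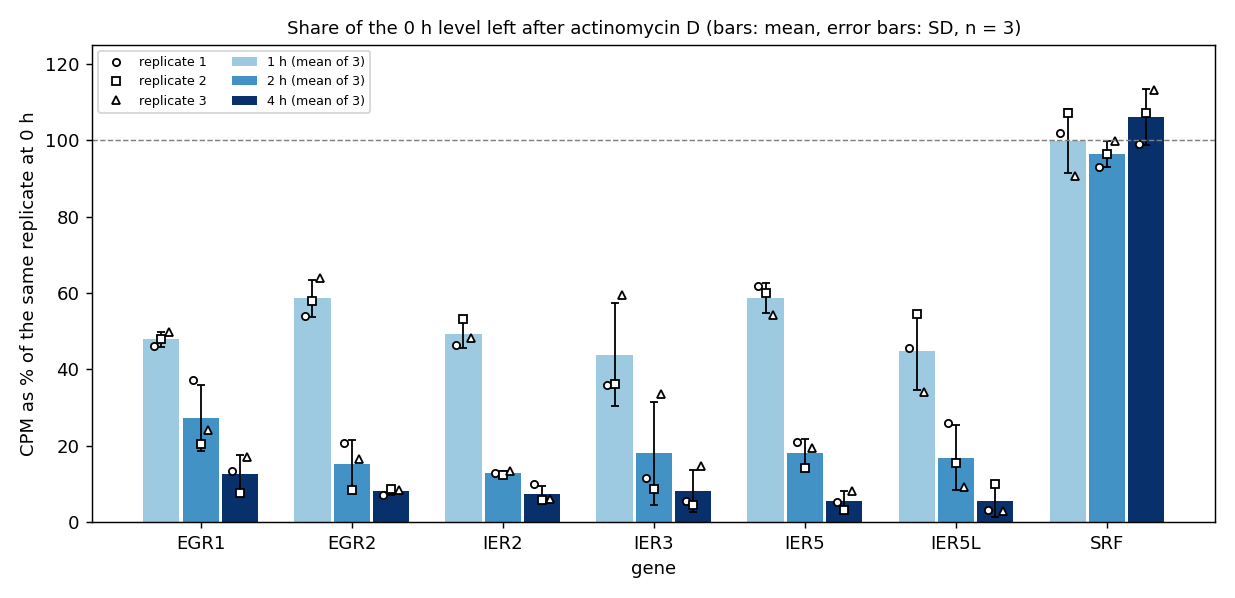
CPM at 1, 2 and 4 h as a percent of the same replicate at 0 h, for the 7 genes that passed the filter. Bars are means of 3, error bars the SD and symbols the replicates. The 6 EGR and IER genes keep 43.9% to 58.7% at 1 h and 5.43% to 12.7% at 4 h on average, and SRF stays near the dashed line at 100%.

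As a share of the 0 h level in the same replicate, the means of the 6 falling genes lay between 43.9% and 58.7% after 1 h. At 1 h EGR1 kept 47.9% ± 1.93, EGR2 58.6% ± 4.86, IER2 49.2% ± 3.56, IER3 43.9% ± 13.5, IER5 58.7% ± 3.96 and IER5L 44.8% ± 10.3 (SD, n = 3). At 4 h EGR1 kept 12.7% ± 4.83, IER3 8.26% ± 5.53, EGR2 8.07% ± 0.873, IER2 7.27% ± 2.28, IER5 5.53% ± 2.52 and IER5L 5.43% ± 4.04. Neighbouring values overlapped. Single libraries set some of these means: IER3 kept 5.52%, 4.64% and 14.6% in replicates 1, 2 and 3, and IER5L 3.33%, 10.1% and 2.87%.

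The slope of log2 expression on time gives an apparent half-life, the time to a log2 change of -1 if the loss is steady. It was 0.859 h for IER5L (95% interval from the SE, 0.723 to 1.06), 0.904 h for IER5 (0.813 to 1.02), 0.962 h for IER2 (0.832 to 1.14) and 0.980 h for EGR2 (0.835 to 1.19). IER3 had 1.09 h (0.870 to 1.45) and EGR1 1.3 h (1.09 to 1.59). The condition of steady loss was not met by IER2, which changed by -2.96 up to 2 h and by -0.82 from 2 to 4 h. The test of slowing given below passed for IER2, and with the replicate block for EGR2 and IER3 as well. Their half-lives therefore average over unlike rates. Fitted within a replicate, IER3 had 0.965 and 0.897 h in replicates 1 and 2 and 1.44 h in replicate 3. In the same order EGR1 had 1.44, 1.07 and 1.6 h, IER5L 0.819, 1.17 and 0.779 h, and IER5 0.909, 0.771 and 1.09 h. IER2 had 1.18, 0.946 and 0.965 h, and EGR2 1.03, 1.06 and 1.07 h. The half-lives with intervals come from slopes without the replicate block. For IER5L, IER5, IER2, EGR2, IER3 and EGR1 these were -1.16, -1.11, -1.04, -1.02, -0.92 and -0.77 per hour. With the block they were -1.18, -1.11, -1.09, -1.03, -0.99 and -0.80 in the same order. The slope was called lower for these 6 genes, with edgeR adjusted p from 3.05e-09 for IER5 to 1.00e-05 for IER3, against 25.5% of all tested genes. The slope of SRF was 0.02 per hour (95% interval -0.04 to 0.08, adjusted p = 0.598). It was -0.08 under ribosomal scaling, where it passed the threshold (adjusted p = 0.0433) and corresponds to 12.8 h. Under that scaling the falling genes had 0.809 to 1.17 h.

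The log2 changes of the separate intervals were tested next. Between 1 and 2 h EGR2 changed by -1.94 (SE 0.24, edgeR adjusted p = 0.000379), IER2 by -1.94 (SE 0.16, adjusted p = 2.46e-05), IER5 by -1.70 (SE 0.17, adjusted p = 0.000143) and IER5L by -1.54 (SE 0.41, adjusted p = 0.0415). These are 4 of the 7, against 5.72% of all genes called lower. With the block EGR1 and IER3 passed as well, at adjusted p = 0.009 and 6.2e-06, against 14.3% of all genes. The IER5L call was lost without 1 library in 7 of 12 cases (0 h replicate 2, 1 h replicates 2 and 3, all 2 h libraries and 4 h replicate 3, adjusted p from 0.0511 to 0.134) and without all of replicate 3 (0.121). The second hour minus the first gave -1.18 for EGR2, -0.92 for IER2 and -0.93 for IER5, beside 0.25 for EGR1, -0.10 for IER3 and -0.34 for IER5L, and no gene of the table passed edgeR's adjusted test of that difference. At an unadjusted p under 0.05 it held 3 of the 7 genes and 909 of 12775, and DESeq2 called 0 of the 7 and 10 in all. With the block EGR2 (adjusted p = 0.0425), IER2 (0.00250) and IER5 (0.00506) passed, against 3.29% of all genes.

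From 2 to 4 h IER5 changed by -1.73 on the log2 scale (SE 0.23, edgeR adjusted p = 0.000181), IER2 by -0.82 (SE 0.19, adjusted p = 0.00830) and EGR1 by -1.08 (SE 0.34, adjusted p = 0.0339). EGR2, IER3 and IER5L had -0.89, -1.12 and -1.42 and missed the threshold at adjusted p = 0.0742, 0.152 and 0.124. Differences between genes over this interval were not tested. EGR2 passed under ribosomal scaling, with -1.12 (adjusted p = 0.0262), and with -1.18 when 2 h replicate 2 was left out (adjusted p = 0.0271). IER3 ran from -0.24 without 2 h replicate 3 to -1.89 without 4 h replicate 3, where it passed (adjusted p = 0.035), and it also passed without all of replicate 3 (-1.01, adjusted p = 0.000619). IER5L had -2.18 without 4 h replicate 2 (adjusted p = 0.0707). The 3 calls of 7 compare with 14.2% of all tested genes. The EGR1 call was lost without 2 h replicate 1 or 3 or 4 h replicate 1 or 2 (adjusted p from 0.0579 to 0.139). With the block IER3 (adjusted p = 0.00102) and IER5L (0.0372) passed and EGR2 did not (0.0591), which made 5, against 22.3% of all genes.

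Whether loss slowed was tested by subtracting the log2 change of the first 2 h from that between 2 and 4 h. The difference was positive in all 7 genes, beside a median of -0.02 over all tested genes. The 7 include SRF, which did not fall, at 0.20 (SE 0.22, edgeR adjusted p = 0.796). The test passed for IER2 alone, at 2.13 (SE 0.31, edgeR adjusted p = 0.0110), where 0.384% of all genes were called higher. That call was lost without any of the 2 h libraries (adjusted p from 0.0508 to 0.0710). With the block EGR2 (1.81, adjusted p = 0.0347), IER2 (adjusted p = 3.18e-06) and IER3 (1.44, adjusted p = 0.0158) passed, against 7.39% of all genes. IER5 had 0.73 (SE 0.35, adjusted p = 0.431; with the block, 0.124) and EGR1 0.78 (SE 0.52, adjusted p = 0.613; with the block, 0.298). For EGR2 and IER5L the 4 h libraries held at most 7 counts each, so their late values rest on few reads. Those of EGR1 held 9, 5 and 13.

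**Figure D3:**
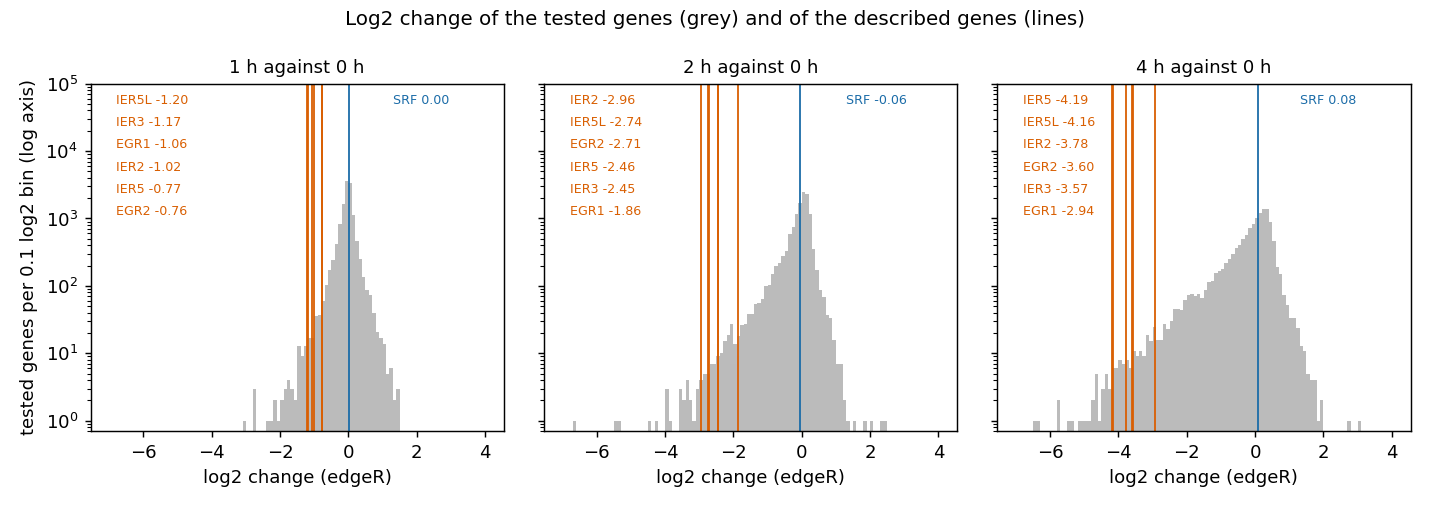
Number of tested genes per 0.1 of log2 change (log axis, grey) at 1, 2 and 4 h against 0 h, with the 6 falling genes as orange lines and SRF as a blue line. EGR1, the least changed of the 6 at 4 h, is at -2.94, and SRF stays at the centre of the distribution.

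Ranked among all 12775 tested genes, the falling genes sat at the low end of the distribution. At 4 h 0.235% of genes had a lower log2 change than IER5, 0.243% than IER5L, 0.438% than IER2, 0.548% than EGR2, 0.579% than IER3 and 1.22% than EGR1. At 1 h the lowest of the group was IER5L, with 0.446% of genes below it, and the highest of the 6 was EGR2, with 1.5%. SRF had 58.2% of genes below it at 1 h and 52.4% at 4 h. IER5 moved down the ranking from 1.46% at 1 h, while EGR1 moved up from 0.642%.

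A log2 ratio of 2 genes within a library does not depend on the scaling between libraries. It was followed over time for the 21 pairs of the 7 genes by an exact two-sided permutation test of the slope, with times permuted within replicate numbers and p-values adjusted over the 21 pairs. All 6 pairs with SRF changed, at -0.75 per hour for EGR1 (exact permutation p = 7.23e-05, the smallest the design allows, adjusted p = 0.000380) to -1.12 per hour for IER5 (adjusted p = 0.000380), in 3 of 3 replicates each. Among the falling genes, 1 of 15 pairs passed. EGR1 was lost more slowly than IER5 by 0.37 log2 per hour (exact permutation p = 0.00123, adjusted p = 0.00369), and over 4 h the ratio moved by 1.27 ± 0.15 (SD, n = 3), in the same direction in 3 of 3 replicates. EGR1 against IER5L had 0.30 per hour (exact permutation, adjusted p = 0.0554), and its change over 4 h ran from -0.41 to 2.32 over the replicates. EGR1 against IER2 and against IER3 had 0.25 and 0.22 (both exact permutation, adjusted p = 0.0997). IER5 against its relative IER5L had -0.06 per hour (exact permutation, adjusted p = 0.729), with a change over 4 h from -1.75 to 1.22, a wide range on both sides of 0.

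Levels between genes were compared per kilobase of exon, with lengths from GENCODE 29. At 0 h the order was IER3 at 106 ± 7.54 CPM per kilobase, IER2 at 17.5 ± 1.20, SRF at 11.6 ± 1.24, IER5 at 10.4 ± 0.564, EGR2 at 2.68 ± 0.113, EGR1 at 2.40 ± 0.185, IER5L at 1.97 ± 0.740 and EGR3 at 0.110 ± 0.0271 (SD, n = 3). SRF and IER5 overlapped, and IER5L overlapped both EGR1 and EGR2. The lowest EGR2 and highest EGR1 libraries, both 2.56 to the digits shown, did not cross. At 4 h SRF led with 12.3 ± 0.780 and overlapped IER3 at 8.85 ± 6.29, whose replicate 3 stood at 16.1. IER2 followed at 1.28 ± 0.433 and IER5 at 0.567 ± 0.231, and IER5, EGR1, EGR2, IER5L and EGR3 each overlapped the next. IER2, above SRF in every library at 0 h, was below it in every library at 2 and 4 h.

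The nearest neighbours were sought among 10257 other genes with at least 5 CPM on average, by the Euclidean distance between the 3 log2 changes. For EGR1 they were ARRDC3 (distance 0.19) and ID1 (0.22), and for EGR2 CSRNP1 (0.28) and BHLHE40 (0.32). IER2 lay nearest to CSRNP1 (0.17) and TIPARP (0.18), and IER5L to ZNF281 (0.33) and TIPARP (0.35). For IER3 they were ZNF16 (0.23) and JUNB (0.40). IER5 lay at 0.12 from SGK1, a serum-induced kinase, which changed by -0.71, -2.40 and -4.29 at 1, 2 and 4 h, and at 0.31 from SOX2. SRF, near the middle of the distribution where most genes lie, had C1orf109 and APBA2 at 0.01. By Pearson correlation of log2 CPM over the 12 libraries, which share the time course, TIPARP came first for IER2 (r = 0.993). By distance TIPARP had come second to CSRNP1 there, and the other neighbours differed between the measures.

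**Figure D4:**
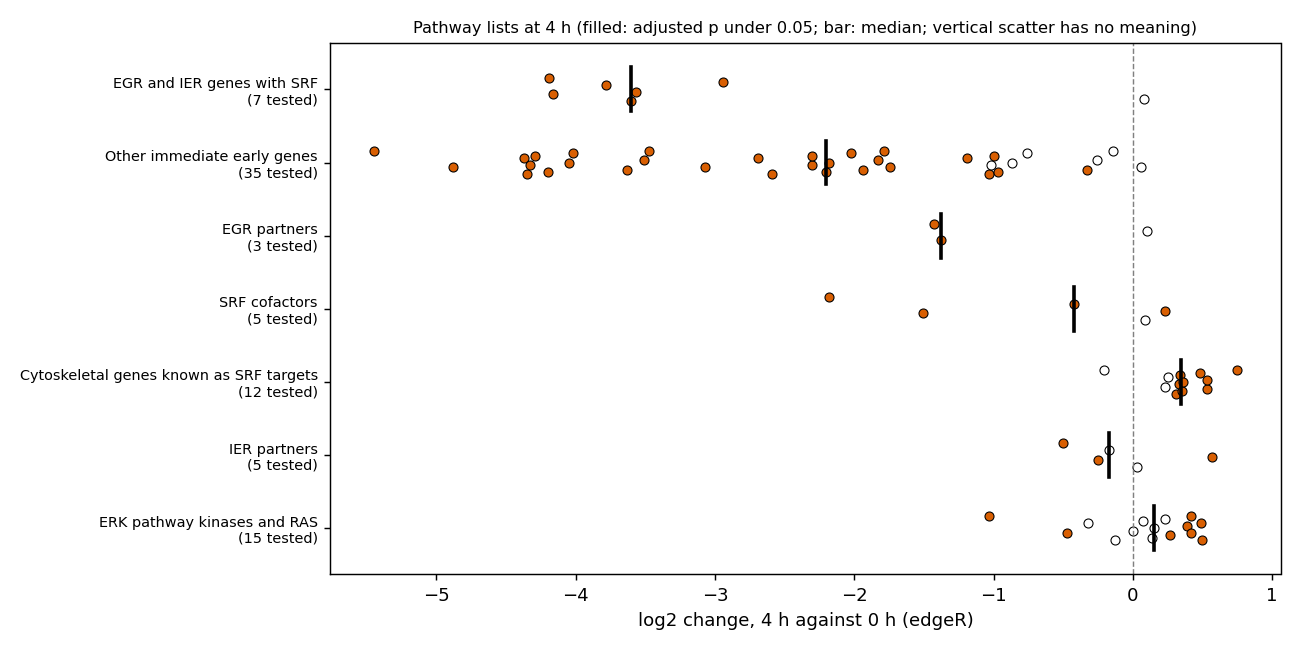
Log2 change at 4 h against 0 h of the tested genes of each list; each point is a gene, filled where edgeR's adjusted p was under 0.05, and the black bar is the list's median. The 6 falling EGR and IER genes lie within the range of the other immediate early genes, from -5.45 to 0.06, and the cytoskeletal SRF targets lie around a median of 0.35.

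Other genes of the pathway were described by list. Of 35 tested other immediate early genes 29 were lower at 4 h and 0 higher, against 24.6% and 23.3% of all tested genes. The list's median was -2.20. With the replicate block 33 were lower and 0 higher, against 30.8% and 34.8% of all genes. PHLDA1 (log2 change -2.69, SE 0.10, edgeR adjusted p = 1.53e-09), SGK1 (-4.29, SE 0.16, adjusted p = 1.53e-09) and the AP-1 subunit JUN (-4.37, SE 0.18, adjusted p = 2.20e-09) had the smallest adjusted p-values. FOS, the best known SRF target, was near its floor from 1 h on, at 1.98 ± 0.622 CPM at 0 h and 0.411 ± 0.0619 CPM at 1 h. The EGR corepressor NAB2 fell from 45.9 ± 3.07 to 17.6 ± 0.703 CPM (-1.38, SE 0.09, adjusted p = 1.24e-07) and the EGR-related zinc finger gene WT1 from 3.98 ± 1.02 to 1.48 ± 0.176 CPM (adjusted p = 0.00151). NAB1, a corepressor of the same family, had 0.10 (SE 0.10, adjusted p = 0.423), and EGR4 had at most 1 count in a library.

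The SRF cofactors split. MKL1, an actin-sensing MRTF cofactor, fell from 50 ± 2.66 to 11 ± 0.944 CPM at 4 h (log2 change -2.18, SE 0.11, edgeR adjusted p = 9.67e-09), and its relative MKL2 from 39.9 ± 5.14 to 14 ± 0.681 CPM (-1.51, SE 0.14, adjusted p = 2.97e-06). The ETS cofactor ELK4 had -0.42 (SE 0.07, adjusted p = 0.000497), ELK3 0.09 (adjusted p = 0.424; under ribosomal scaling -0.27, adjusted p = 0.0202) and ELK1 0.23 (adjusted p = 0.0263), a rise that was 0.08 under library totals (adjusted p = 0.479) and -0.14 under ribosomal scaling (0.256). With 3 of 5 lower and 1 higher, the list had a median of -0.42. Ribosomal scaling gave 4 lower and 0 higher, library totals 3 and 0, and the block 3 and 1. Of the 12 tested cytoskeletal genes known as SRF targets, 9 were higher and 0 lower at 4 h, led by ACTA2 (0.48, adjusted p = 3.62e-05), FLNA (0.53, adjusted p = 0.00213) and TPM4 (0.34, adjusted p = 0.0112). With the block 11 were higher and 1 lower (FHL2, log2 change -0.21, adjusted p = 0.00274 with the block), against 34.8% and 30.8% of all genes. The direction depends on scaling: with RLE factors 8 were higher, but 2 were higher under library totals, and 0 higher and 1 lower under ribosomal scaling, where the list's median was -0.02 and that of all genes -0.31. With TMM factors 24.6% of all tested genes were lower at 4 h and 23.3% higher. The shares of all genes called under RLE factors, library totals and ribosomal scaling are not given here, for either list.

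Of 5 tested partners of the IER proteins, 2 were lower and 1 higher at 4 h, with a median of -0.17. Library totals gave 3 lower and 1 higher, ribosomal scaling 4 lower and 0 higher (median -0.53), and the block 2 and 1. Over all tested genes 24.6% were lower and 23.3% higher at 4 h with TMM factors, or 30.8% and 34.8% with the block. These shares under library totals and ribosomal scaling are not given here. The median of all genes was 0.05, or -0.31 under ribosomal scaling. HSF1 had a log2 change of 0.57 at 4 h (SE 0.08, edgeR adjusted p = 9.42e-05), which was 0.21 and missed the threshold under ribosomal scaling (adjusted p = 0.0815), and the PP2A subunit genes PPP2R2A and PPP2CA had -0.50 (adjusted p = 0.000548) and -0.25 (adjusted p = 0.0321). IER3IP1, named for its binding to IER3, had 0.03 (adjusted p = 0.840). Ribosomal scaling gave it -0.33 (adjusted p = 0.0352). Of 15 ERK pathway genes, 2 were lower and 6 higher, against 24.6% and 23.3% of all genes, and the list's median was 0.15. Library totals gave 3 lower and 5 higher, with a median of 0.00 beside -0.1 over all genes. Ribosomal scaling gave 6 lower and 0 higher, with a median of -0.21 beside -0.31 over all genes. The block gave 3 lower and 8 higher, against 30.8% and 34.8% of all genes. For this list too, the shares of all genes called under library totals and ribosomal scaling are not given. The kinase genes MAP2K2 and ARAF had log2 changes of 0.49 and 0.39 (edgeR adjusted p = 0.000118 and 0.000417), which were 0.12 and 0.03 under ribosomal scaling (0.245 and 0.813).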

How the data were processed

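Raw counts per gene symbol were deposited by the authors for 12 libraries (Nucleospin RNA, stranded TruSeq mRNA, per the labels' protocols). FastQC, STAR and hg19 are named per the submitters' processing notes, and the counting program, its annotation and its strand mode are not given in the sources used here. Of 26334 genes, 7175 had no count. The tests used edgeR 4.0.16 under R 4.3.3 (filterByExpr, 12775 genes, TMM, quasi-likelihood test over all 12 libraries, Benjamini-Hochberg over all genes, threshold 0.05), with DESeq2 1.42.0 as an alternative. SEs are the log2 change divided by the root of the F statistic, and slope intervals use 1.96 SE. The edgeR test was checked on simulated counts drawn independently for each library, so the check does not cover libraries paired by replicate number. Replicate numbers paired the libraries: deviations from group means correlated at 0.263 to 0.649 within a number, and 12 of 12 libraries were closest to their own. Between numbers the correlations were -0.721 to 0.16. The 3 libraries of a time carry different numbers, and subtracting their mean pushes the correlations among them below 0. The range between numbers is therefore partly set by the method. No libraries were identical (lowest chi-square per degree of freedom of a replicate pair, 4.13). Ratios had 0.5 added to the counts. The members and the gene lists were chosen with earlier results of these data known. Named genes were the 8 members, up to 3 per list with the smallest adjusted p at 4 h, and the 2 nearest genes per member (1 list gene is not reported here); FOS, EGR4, ELK1, ELK3, FHL2, IER3IP1, HBB and HBA1 were added after their values were seen. IER2, IER5L and further starts were searched for motifs and are not printed.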

Additional observations from a re-analysis of the deposited data

How the results depend on the processing

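The falls at 2 and 4 h and the slopes held for all 6 EGR and IER genes under RLE factors, library totals, ribosomal scaling, no filter, DESeq2, the replicate block and without each library. The replicate block moved the number of members called lower from 3 to 6 at 1 h and from 3 to 5 between 2 and 4 h, that of the early change of rate from 0 to 3, and that called higher in the late change of rate from 1 to 3. Without 1 library the number lower was 1 to 4 at 1 h, 3 to 4 between 1 and 2 h and 2 to 4 between 2 and 4 h, and the late change of rate had 0 to 1. Without all of replicate 3, a choice made after seeing the data, the late change of rate had 2 (IER2 and IER3). The pairs of genes past the threshold were 7 to 8 without 1 replicate number.

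The share remaining moved by more than its SD under ribosomal scaling for EGR2 at 4 h (6.28%), IER2 at 2 h (11.7%) and SRF at 2 h (87.5%) and 4 h (82.8%), and under library totals for SRF (92.7% and 95.9%). SRF, whose changes were near 0, changed sign at 4 h to -0.07 under library totals, -0.28 under ribosomal scaling and -0.02 to 0.13 without 1 library. Its slope turned to -0.02, -0.08 and, without replicate 3, 0.00, and its change from 2 to 4 h to -0.08 under ribosomal scaling. At 1 h SRF had 0.00 with the block and -0.09 to 0.16 without 1 library, at 2 h -0.15 to 0.01, and between 1 and 2 h -0.21 to 0.03. In the early change of rate, without 1 library, SRF ran from -0.37 to 0.12, IER3 from -0.99 to 0.53 and EGR1 from -0.04 to 0.46. For the 7 tested genes the block changed no call other than those given above. The cause was not tested. Depth limits EGR3 throughout, and EGR2 and IER5L at 4 h, where libraries held at most 7 counts. It also limits EGR1 at 4 h, with 9, 5 and 13 counts.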
